A study of Mus musculus with 9 samples.

Results

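The Toll-like receptors of the mouse were followed through RNA sequencing of RAW264.7 cells. All rows of 10 named receptor genes (Tlr1 to Tlr9 and Tlr13) were taken from the authors' transcript table, and the values of their transcripts were summed by gene identifier. The 10 genes stand among 53700 genes of the deposited tables, and 52 of the 153363 listed transcripts belong to them. RAW264.7 is a mouse macrophage line that arose from a tumour induced by Abelson leukaemia virus. Of the 9 samples, 3 are labelled CON, 3 LPS and 3 ProNa. The treatment text, which is the same for every sample, describes culture for 24 h with or without ProNa at 1 mM and then 12 h with lipopolysaccharide (LPS) at 100 ng/mL. The treatment tag of a sample holds only its group's name. CON is taken to mean neither agent, LPS to mean LPS alone, and ProNa to mean both in sequence, so none of the groups had ProNa by itself. The labels do not expand the abbreviation ProNa. All groups come from the one cell line, and nothing says whether the samples of a group were separate cultures, so the p-values measure a spread between samples that may be technical.

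Toll-like receptors are membrane proteins that recognise conserved molecules of microbes through leucine-rich repeats (LRR) and pass the signal inwards through a Toll/interleukin 1 receptor (TIR) domain. Those at the cell surface read lipids and proteins: TLR4 binds LPS together with MD-2, TLR2 pairs with TLR1 or TLR6 to bind lipopeptides, and TLR5 binds flagellin. Those in endosomes read nucleic acids. TLR3 senses RNA duplexes, TLR7 single-stranded RNA and its breakdown products, TLR9 unmethylated CpG DNA and TLR13 bacterial ribosomal RNA. TLR8 is also counted as endosomal here. Most signal through the adaptor MyD88, whereas TLR3 uses TRIF and TLR4 uses both.

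Levels are given as FPKM, fragments scaled to transcript length and to the library's mapped fragments, which allows genes to be compared per length. They are the authors' group means, so no spread accompanies them, and whether neighbours in an order differ beyond the spread of samples could not be judged. In CON the family was led by Tlr2 (ENSMUSG00000027995) at 87.1 FPKM and Tlr7 (ENSMUSG00000044583) at 85.9 FPKM. Tlr13 (ENSMUSG00000033777) followed at 51.7 FPKM and Tlr4 (ENSMUSG00000039005) at 27.3 FPKM. Tlr6 (ENSMUSG00000051498), Tlr1 (ENSMUSG00000044827), Tlr9 (ENSMUSG00000045322) and Tlr3 (ENSMUSG00000031639) had 12.6, 12.2, 7.84 and 6.32 FPKM. Tlr8 (ENSMUSG00000040522) was low at 1.90 FPKM. Tlr5 (ENSMUSG00000079164), the flagellin receptor, was listed at 0.01 FPKM in CON and at 0 in LPS and ProNa, and the authors' deposited table gives it no adjusted p in any comparison. Of the mouse receptors outside the 10, Tlr11 and Tlr12 were listed at 0 in every group.

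In LPS Tlr2 still led at 28.2 FPKM, with Tlr13 at 25.7 FPKM and Tlr1 at 18.3 FPKM behind it. Tlr6 had 16.8, Tlr4 15.6 and Tlr7 15.3 FPKM, so Tlr7 went from the second place to the sixth. Tlr3 had 9.09, Tlr9 5.12 and Tlr8 0.0467 FPKM. In ProNa the order changed again: Tlr13 led at 35.9 FPKM, followed by Tlr7 at 27.8 and Tlr2 at 27.1 FPKM. Tlr3 moved up to the fourth place at 19.4 FPKM, ahead of Tlr6 at 18.9, Tlr4 at 15.1 and Tlr1 at 12.6 FPKM. Tlr9 had 2.86 and Tlr8 0.493 FPKM in ProNa. Between CON and LPS the 4 most abundant receptors had lower means, while Tlr1, Tlr6 and Tlr3 had higher ones.

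**Figure D1:**
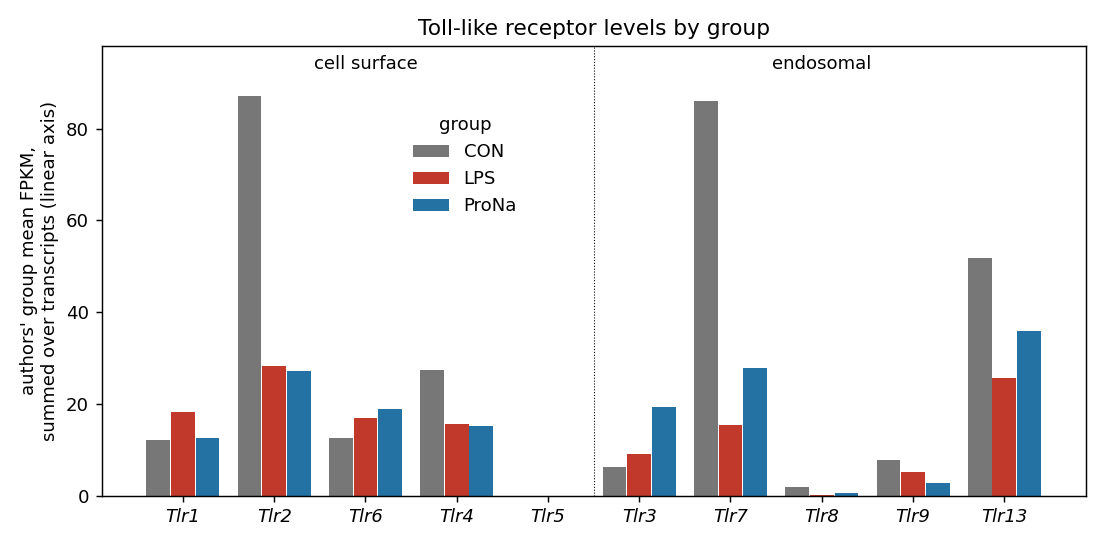
Bars give the authors' group mean FPKM (vertical axis, linear), summed over transcripts, of the 10 receptor genes (horizontal axis) in CON, LPS and ProNa, cell surface receptors on the left and endosomal ones on the right. Tlr2 and Tlr7 stand above 80 FPKM in CON alone, and Tlr3 is highest in ProNa.

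Summed over the 10 genes, the receptor transcripts amounted to 293 FPKM in CON but to 134 FPKM in LPS and 160 in ProNa. Within that sum Tlr2 held 29.7% in CON, 21.0% in LPS and 16.9% in ProNa. Tlr7 held 29.3%, 11.4% and 17.4% in the same order. Tlr1 and Tlr6, the partners of TLR2, together held 8.45% in CON, 26.2% in LPS and 19.6% in ProNa. The mean FPKM of Tlr2 was 3.52 times that of Tlr1 and Tlr6 together in CON, 0.803 times in LPS and 0.860 times in ProNa. However, this ratio and the shares of the sum count a short Tlr6 transcript without a TIR domain. It held 51.4%, 50.7% and 55.1% of the FPKM of Tlr6 in CON, LPS and ProNa. Over transcripts with the domain Tlr2 had 28.2 FPKM in LPS against 18.3 for Tlr1 and 8.30 for Tlr6, and 27.1 FPKM in ProNa against 12.0 and 8.46, so it was then above its partners together in every group. Endosomal receptors held 52.5% of the sum in CON, 41.2% in LPS and 54.0% in ProNa. Among them the ratio of Tlr7 to Tlr9 was 11.0 in CON, 2.99 in LPS and 9.72 in ProNa, and that of Tlr3 to Tlr9 was 0.806, 1.77 and 6.78. These are ratios of means with no error.

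**Figure D2:**
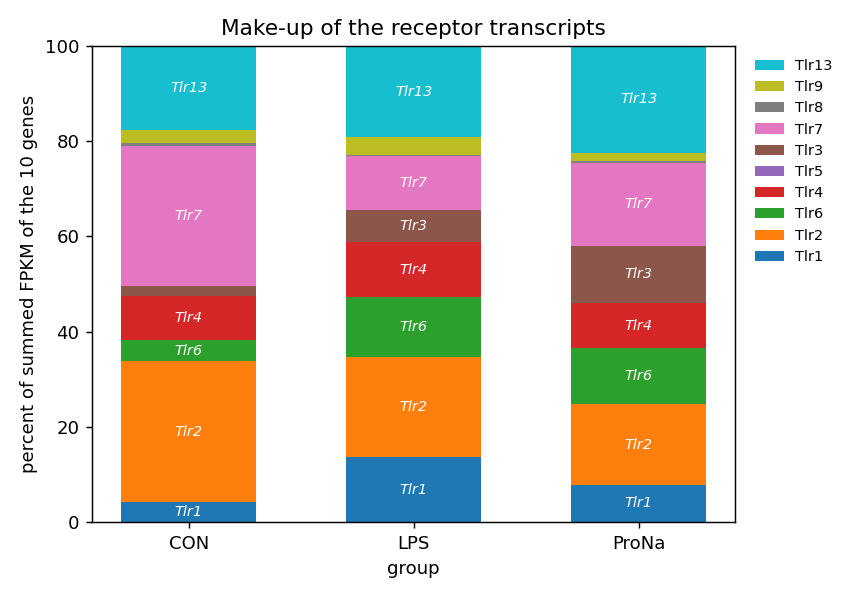
Stacked bars give the share of each receptor gene in the summed FPKM of the 10 genes (vertical axis, percent) for CON, LPS and ProNa. Tlr2 (29.7%) and Tlr7 (29.3%) fill most of the CON bar, and the shares of Tlr1, Tlr6 and Tlr3 are larger in LPS and ProNa than in CON.

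Fold changes and p-values come from the authors' deposited table, which was made with DESeq2, and a gene counts as changed at an adjusted p under 0.05. They lie on a higher scale than the FPKM: over all adjusted genes the log2 fold change of the authors' deposited table exceeded the log2 ratio of FPKM by a median of 0.23 for LPS against CON, 0.13 for ProNa against LPS and 0.35 for ProNa against CON. With that median subtracted (called the FPKM scale here) and tested again, the share of higher among changed genes went from 50.8% to 39.0%, from 53.9% to 30.1% and from 51.0% to 34.1% in the same order of comparisons. The retest treats the median as known without error, and which scale is nearer to the amounts in the cells was not tested. Macrophage markers were present, 7 of 8 at 1 FPKM or more in some group. Their summed level of 12020 FPKM in CON compares with 2036 in LPS and 2880 in ProNa, and its part in the receptor results was not tested. That sum is carried by Lyz2 (9719, 661 and 1586 FPKM) and Csf1r (888, 27.7 and 53.1 FPKM). Itgam was also lower in LPS and ProNa, with 201, 87.8 and 106 FPKM. By contrast, Adgre1 had 31.8, 65.5 and 47.1 FPKM, Spi1 257, 329 and 351 FPKM and Fcgr1 39.5, 41.7 and 106 FPKM. Cd68 had 884, 823 and 631 FPKM, and Mertk stayed at or below 0.04 FPKM. Markers of epithelium (7), lymphocytes (7), dendritic cells (4), fibroblasts (4) and endothelium (3) all stayed below 1 FPKM; the extraction text names colon, not cells. Their summed levels were 0.03 to 0.147, 0.03 to 0.0634, 0.0567 to 0.790, 0.0899 to 0.373 and 0.0833 to 0.613 FPKM over the groups, and Epcam and Cd3e were at 0. Of 4 neutrophil markers, S100a8 reached 191 FPKM in LPS while Ly6g and Elane were at 0, and the list summed to 0.460, 191 and 186 FPKM in CON, LPS and ProNa. In bulk samples fewer cells that carry a transcript and less of it per cell cannot be told apart.

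LPS was first compared with CON, which asks what LPS alone did to the receptors. All 9 receptors with an adjusted p changed by the authors' deposited table, 3 higher (Tlr1, Tlr6 and Tlr3) and 6 lower (Tlr2, Tlr4, Tlr7, Tlr8, Tlr9 and Tlr13). Tlr5 had no adjusted p. Among all 17795 adjusted genes 55.4% changed, 28.1% higher and 27.2% lower by the authors' deposited table. At 2-fold or more, 3 receptors passed (Tlr2, Tlr7 and Tlr8, all lower), beside 27.9% of all adjusted genes. The median log2 fold change of the 9 was -0.49, against -0.02 over all adjusted genes of the authors' deposited table. On the FPKM scale 3 receptors were again higher and 6 lower, where 56.7% of all adjusted genes changed, 22.1% higher and 34.6% lower. The receptors' median was then -0.72, and the median over all adjusted genes moved down by the same 0.23.

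Of the surface receptors, those of the TLR2 complex went in opposite directions. Tlr2, which encodes the subunit common to both lipopeptide receptors, fell from 87.1 to 28.2 FPKM and was 2.56-fold lower by the authors' deposited table (log2 fold change -1.35, adjusted p = 5.3e-114). Its partners rose. Tlr1, whose protein joins TLR2 to bind triacylated lipopeptides, was 1.80-fold higher by the authors' deposited table (adjusted p = 4.2e-20). Tlr6, whose protein joins TLR2 to bind diacylated ones, was 1.54-fold higher by the authors' deposited table (adjusted p = 8.0e-08). Both rises were smaller on the FPKM scale, with log2 changes of 0.62 for Tlr1 and 0.39 for Tlr6. Over transcripts with a TIR domain Tlr6 had 6.11 FPKM in CON and 8.30 FPKM in LPS. Its main transcript had 5.88 and 6.25 FPKM, and Tlr6 shares sequence with Tlr1, as given below. Tlr4, the receptor for the LPS that was added, fell from 27.3 to 15.6 FPKM and was 1.40-fold lower by the authors' deposited table (adjusted p = 5.5e-09). That is less than the fall of Tlr2 in log2 terms, -0.49 against -1.35 in the authors' deposited table, though the difference between these falls was not tested.

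Endosomal receptors fell in 4 of 5 cases. Tlr7, a sensor of single-stranded RNA, went from 85.9 to 15.3 FPKM and was 4.47-fold lower by the authors' deposited table (adjusted p = 1.6e-180). Only 9.26% of adjusted genes had a lower log2 fold change. Tlr8, its neighbour on the X chromosome, went from 1.90 FPKM to 0.0467 FPKM, which is near the floor, so the log2 fold change of -4.92 in the authors' deposited table (adjusted p = 1.7e-15) is given without a fold. Tlr13 was 1.62-fold lower by the authors' deposited table (adjusted p = 3.5e-25), with 51.7 FPKM in CON and 25.7 FPKM in LPS. Tlr9 fell least, from 7.84 to 5.12 FPKM, and in the authors' deposited table it was the receptor nearest to the threshold (adjusted p = 0.036). With a stricter threshold of 0.01 Tlr9 did not pass, which leaves 5 lower. Tlr3, the only receptor of the family that does not use MyD88, was the exception among the endosomal ones: it rose 1.55-fold in the authors' deposited table (adjusted p = 8.3e-07), from 6.32 to 9.09 FPKM.

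Next, ProNa was compared with LPS, which asks how ProNa given beforehand altered the receptors of cells that then had LPS. Of 9 receptors with an adjusted p, 6 changed by the authors' deposited table, 4 higher and 2 lower. Among all 12732 adjusted genes 30.6% changed, 16.5% higher and 14.1% lower by the authors' deposited table. The endosomal receptors accounted for all 4 that rose: Tlr3, Tlr7, Tlr8 and Tlr13. Tlr9 and Tlr1 fell. At 2-fold or more Tlr3 and Tlr8 passed, both higher, beside 3.25% of adjusted genes (2.4% higher and 0.856% lower). The pass of Tlr8 rests on a level near the floor in LPS, and with a pseudocount of 0.5 its log2 ratio of FPKM was 0.86, under 2-fold. On the FPKM scale 4 receptors were higher and 2 lower as well, where 36% of adjusted genes changed, 10.8% higher and 25.2% lower.

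Tlr3 went from 9.09 FPKM in LPS to 19.4 FPKM in ProNa. It was 2.51-fold higher by the authors' deposited table (log2 fold change 1.33, adjusted p = 3.2e-27), and 1.34% of adjusted genes had a higher log2 fold change. For Tlr7 the means were 15.3 and 27.8 FPKM, and it was 1.85-fold higher by the authors' deposited table (adjusted p = 1.1e-25). Its level in ProNa was still below the 85.9 FPKM of CON. Tlr13, the receptor for bacterial ribosomal RNA, was 1.52-fold higher by the authors' deposited table (adjusted p = 8.6e-18), with 25.7 and 35.9 FPKM. Tlr8 stood at 0.0467 and 0.493 FPKM, and its rise (adjusted p = 0.0025 in the authors' deposited table) is between levels near the floor. Against these, Tlr9 went from 5.12 to 2.86 FPKM and was 1.63-fold lower by the authors' deposited table (adjusted p = 1.2e-04). It was the one receptor called lower in both LPS against CON and ProNa against LPS, 2 comparisons that share the LPS samples.

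Among the surface receptors Tlr1 alone changed in this comparison. Its mean was 18.3 FPKM in LPS against 12.6 FPKM in ProNa, and it was 1.40-fold lower by the authors' deposited table (adjusted p = 1.4e-06). Tlr2 had 28.2 and 27.1 FPKM (adjusted p = 0.58 in the authors' deposited table). Tlr4 had 15.6 and 15.1 FPKM (adjusted p = 0.91 in the authors' deposited table). Tlr6 had 16.8 and 18.9 FPKM (adjusted p = 0.37 in the authors' deposited table). Their log2 fold changes lay between 0.02 and 0.14 in the authors' deposited table, and those of Tlr2 and Tlr4 were negative on the FPKM scale, at -0.07 and -0.11. These p-values do not show that the 3 receptors were alike in LPS and ProNa. A difference between surface and endosomal receptors was not tested.

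The third comparison was of ProNa with CON, which shares its samples with the other two. The authors' deposited table has 3 receptors higher (Tlr1, Tlr3 and Tlr6) and 5 lower (Tlr2, Tlr4, Tlr7, Tlr8 and Tlr9), and Tlr13 did not pass. Of all 18540 adjusted genes 54.4% changed, 27.7% higher and 26.6% lower by the authors' deposited table. At 2-fold or more 5 receptors passed, 1 of them higher, beside 27.1% of adjusted genes. Tlr3 had the largest rise among the receptors, 3.89-fold in the authors' deposited table (adjusted p = 6.5e-70), from 6.32 FPKM in CON to 19.4 FPKM in ProNa. Tlr6 was 1.70-fold higher by the authors' deposited table (adjusted p = 3.2e-13). Tlr2, Tlr7 and Tlr9 were lower by folds of 2.44, 2.42 and 2.07 in the authors' deposited table (adjusted p = 7.1e-140, 8.3e-160 and 3.0e-15). Tlr4 was 1.38-fold lower by the authors' deposited table (adjusted p = 4.8e-12), and Tlr8 had 1.90 FPKM in CON and 0.493 FPKM in ProNa (adjusted p = 2.6e-08 in the authors' deposited table).

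Calls on Tlr1 and Tlr13 in this comparison depended on the scale. Tlr1 was 1.29-fold higher by the authors' deposited table (adjusted p = 7.3e-05), but its means of 12.2 and 12.6 FPKM were close, and on the FPKM scale its log2 change was 0.02 with an adjusted p of 0.87. Tlr13 had a log2 fold change of -0.09 in the authors' deposited table (adjusted p = 0.10), yet means of 51.7 and 35.9 FPKM. On the FPKM scale its log2 change was -0.44 with an adjusted p of 2.1e-19. That p takes the subtracted median of 0.35 as known without error, so it does not decide between the scales. On that scale 2 receptors were thus higher and 6 lower, beside 56.7% of adjusted genes changed, 19.3% higher and 37.3% lower.

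**Figure D3:**
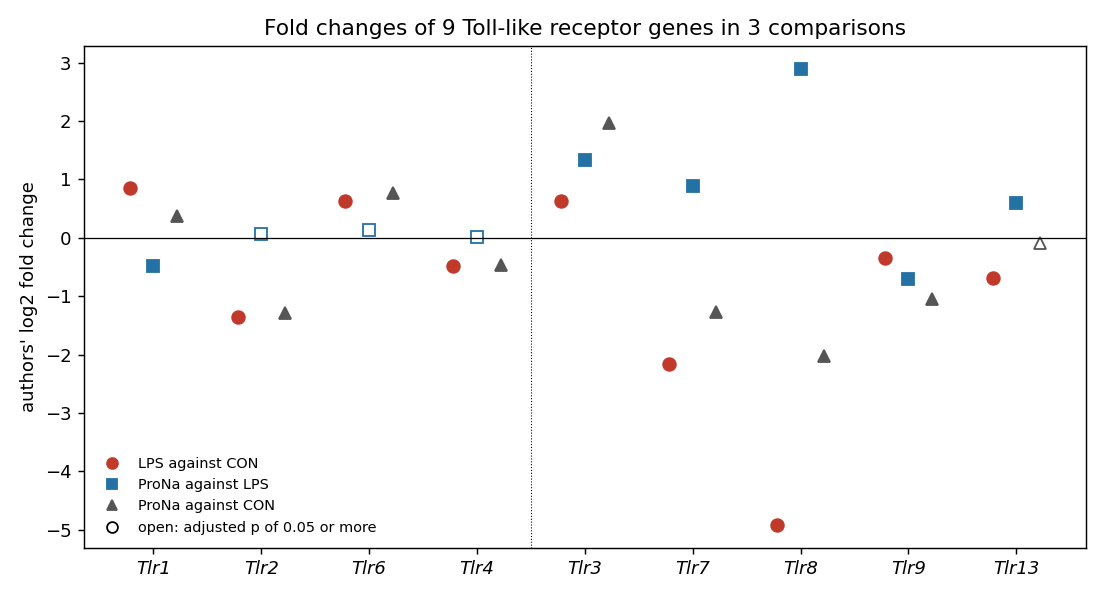
Points give the log2 fold change of the authors' deposited table (vertical axis) for 9 receptor genes in the 3 comparisons, cell surface receptors left of the dotted line and endosomal ones right of it; open symbols mark an adjusted p of 0.05 or more. For ProNa against LPS (squares) Tlr2, Tlr6 and Tlr4 are open and lie between 0.02 and 0.14. Tlr3, Tlr7, Tlr8 and Tlr13 lie between 0.60 and 2.90, the upper end being Tlr8, whose levels are near the floor. Tlr1 of the surface receptors and Tlr9 of the endosomal ones lie below 0, at -0.49 and -0.71.

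Single transcripts show what lies behind the gene sums. The 52 transcripts comprise reference ones and others that StringTie assembled from the reads. The authors' annotation gives a TIR domain to 32 of the 52 and leucine-rich repeats to 37, and 9 were at 0 in all groups. Tlr2 was made up almost wholly of 1 reference transcript, with 80.6, 26.2 and 24.0 FPKM in CON, LPS and ProNa. Tlr9 had a single transcript. Tlr4 had 1 transcript with a TIR domain, at 24.2, 13.8 and 12.7 FPKM, so the lower level of the gene was also that of the form annotated with the domain.

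The rise of Tlr1 in LPS lay in its reference transcripts, whose sum was 6.66 FPKM in CON, 13.9 FPKM in LPS and 8.27 FPKM in ProNa. Its 3 assembled transcripts summed to 5.53, 4.40 and 4.34 FPKM. About the same mean FPKM of the gene in CON and ProNa was thus divided differently among its listed transcripts, a difference that was not tested. The reference sum in ProNa includes 0.597 FPKM of a transcript of 419 bases without a TIR domain, listed at 0 in CON and LPS. For Tlr6 a reference transcript of only 446 bases without a TIR domain held 51.4%, 50.7% and 55.1% of the gene's FPKM. Its transcripts with the domain summed to 6.11, 8.30 and 8.46 FPKM. Since FPKM divides by length, so short a transcript weighs heavily in the sum. Another Tlr6 transcript, of 2603 bases and with a TIR domain, was listed at 0 in CON, 1.70 FPKM in LPS and 2.43 FPKM in ProNa, while the main transcript of 3677 bases had 5.88, 6.25 and 5.67 FPKM.

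Tlr3 was spread over 13 transcripts, of which 9 were above 0. The 3 reference transcripts of Tlr3 with the highest levels had 1.42, 0.773 and 0.597 FPKM in CON and 5.00, 4.23 and 3.18 FPKM in ProNa. In LPS the first of them had 1.38 FPKM and the second 2.67 FPKM, the reverse of their order in CON. The main Tlr7 transcript had 55.9, 12.2 and 21.7 FPKM, and an assembled Tlr7 transcript of 7635 bases had 14.5, 2.13 and 3.01 FPKM. The main Tlr13 transcript had 40.6, 18.2 and 25.2 FPKM, and an assembled one of 5354 bases had 10.6, 7.43 and 10.4 FPKM. No test was made on single transcripts.

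**Figure D4:**
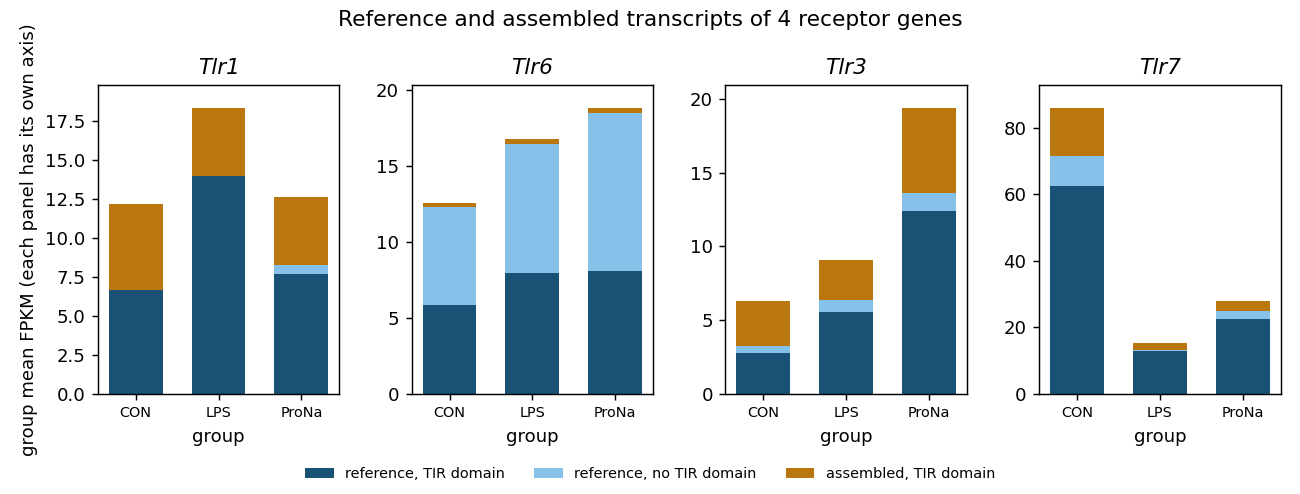
Stacked bars give the mean FPKM (vertical axis, own range in each panel) of Tlr1, Tlr6, Tlr3 and Tlr7 in CON, LPS and ProNa, split into reference transcripts with a TIR domain, reference transcripts without one and assembled transcripts with one. In Tlr1 the reference part is largest in LPS, and in Tlr6 the part without a TIR domain is at least 50.7% of each bar.

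Some of these genes share sequence with others. In transcripts of GENCODE M21 (build GRCm38), 454 of the 3332 distinct 50-base stretches of Tlr1 (13.6%) also occur in Tlr6, and 259 of 3282 stretches of 100 bases (7.89%). No other of the 45 pairs of receptors shares a stretch of either length. How reads from the common stretches were divided between Tlr1 and Tlr6 was not stated with the data, so values of both are uncertain to that extent. Exons of Tlr3 overlap those of Gm45542 on the opposite strand in that annotation, and without known strand handling their reads cannot be told apart.

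Start regions are shown for receptors that stand for 3 kinds of change: Tlr2, the most abundant one, which fell with LPS, Tlr6, which rose, and Tlr9, which fell in all comparisons. RefSeq gives promoter windows (250 bases before a start site to 50 after it, build GRCm38.p6) for 8 of the 10 genes, 10 windows in all. Printed are only bases before the start that no GENCODE exon covers, with capitals for matches to motif letters of factors that act downstream of these receptors or in macrophages.
Tlr2, chr3:83841768-83841858, minus strand: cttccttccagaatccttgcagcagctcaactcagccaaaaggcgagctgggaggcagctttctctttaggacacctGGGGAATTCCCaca
Tlr6, chr5:64959167-64959416, minus strand: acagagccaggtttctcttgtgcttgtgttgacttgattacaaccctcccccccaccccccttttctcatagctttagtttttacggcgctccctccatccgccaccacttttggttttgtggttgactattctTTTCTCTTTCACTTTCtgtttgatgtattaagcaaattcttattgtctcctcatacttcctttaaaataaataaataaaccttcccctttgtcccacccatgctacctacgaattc
Tlr6, chr5:64960098-64960298, minus strand: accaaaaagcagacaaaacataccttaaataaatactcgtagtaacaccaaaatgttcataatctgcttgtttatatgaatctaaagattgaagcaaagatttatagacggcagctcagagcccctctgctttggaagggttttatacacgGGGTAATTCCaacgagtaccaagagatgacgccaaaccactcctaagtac
Tlr9, chr9:106222348-106222597, plus strand: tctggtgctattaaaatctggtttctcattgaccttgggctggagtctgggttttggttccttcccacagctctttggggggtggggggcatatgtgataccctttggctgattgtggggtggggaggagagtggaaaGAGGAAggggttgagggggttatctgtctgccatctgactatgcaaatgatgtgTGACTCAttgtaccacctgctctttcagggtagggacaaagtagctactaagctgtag
In Tlr2 the capitals mark overlapping matches to the NF-kB letters, GGG and CC with any 5 bases between them. RefSeq gives 2 Tlr6 windows, and in neither were the bases after the start found in a GENCODE transcript of the gene. The capitals in the first are 2 overlapping matches, on the opposite strand, to the letters of the interferon-stimulated response element (ISRE), GAAA and GAAA with any 2 bases between them, and in the second they mark the NF-kB letters. In Tlr9 they mark the PU.1 core GAGGAA and the AP-1 letters TGANTCA.

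Both strands were searched over whole windows of 300 bases. The NF-kB letters occurred in 4 of the 10 receptor windows (Tlr2, Tlr3, Tlr5 and Tlr6) and in 50.8% of all 32851 windows, so they are common. ISRE letters occurred in 1 of the 10 (Tlr6) and in 3.44% of all windows. PU.1 letters were found in 4 of the 10 (Tlr1, Tlr8, Tlr9 and Tlr13) and in 28.3% of all, and AP-1 letters in 1 of the 10 (Tlr9) and in 7.81% of all. The Tlr3 window has no ISRE letters, but 178 of its 250 bases before the start lie in GENCODE exons. In Tlr2 and Tlr3 some of the NF-kB matches lie in GENCODE exons. Whether any match bears on the change of a receptor was not tested. A match describes letters only and shows no binding.

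Co-receptors such as CD14 help present ligand to the surface receptors, and the list used here also holds Cd180 and its partner Ly86. Of 6 (Cd14, Ly96, Cd180, Ly86, Lbp and Cd36) 4 rose in LPS against CON and 1 fell by the authors' deposited table (median log2 fold change 1.24, against -0.02 over all adjusted genes), and Lbp was listed at 0. Over all adjusted genes 28.1% were higher and 27.2% lower. In ProNa against LPS 3 were higher and 0 lower by the authors' deposited table, beside 16.5% and 14.1% of all adjusted genes. Cd14, which hands LPS to TLR4, had 757, 1406 and 1975 FPKM in CON, LPS and ProNa. Cd36, a co-receptor of TLR2 with TLR6, had 20.7, 176 and 274 FPKM. Ly86, the partner of the TLR4 homologue CD180, fell and then rose, with 114, 26.1 and 47.9 FPKM. In ProNa against LPS the adjusted p of Cd36, Ly86 and Cd14 in the authors' deposited table was 4.7e-37, 7.0e-23 and 1.2e-13, and in LPS against CON it was listed as 0 for Cd36, 1.5e-102 for Ly86 and 1.7e-53 for Cd14. In LPS, Cd14 and Cd36 thus had higher levels while Tlr4 and Tlr2 had lower ones.

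The adaptors and proximal kinases went both ways. In LPS against CON 7 of 16 were higher and 6 lower by the authors' deposited table, and 3 were higher and 8 lower on the FPKM scale. The shares over all adjusted genes were 28.1% and 27.2%, and 22.1% and 34.6% on the FPKM scale. Ticam1, which encodes the adaptor TRIF of TLR3 and TLR4, had 8.04, 44.3 and 28.6 FPKM in CON, LPS and ProNa and was 6.66-fold higher in LPS than in CON by the authors' deposited table (adjusted p = 2.0e-252). Irak1, a kinase recruited through MyD88, fell from 43.2 to 10.5 FPKM (adjusted p = 2.3e-74 in the authors' deposited table). Pik3ap1, which couples the receptors to phosphoinositide 3-kinase, rose 1.78-fold in the authors' deposited table (adjusted p = 2.2e-34). Myd88, the adaptor of most receptors, had 55.3 FPKM in CON and 45.7 FPKM in LPS (adjusted p = 0.91 in the authors' deposited table), but was lower on the FPKM scale, with a log2 change of -0.24 and an adjusted p of 0.0012. Between ProNa and LPS 2 of 15 adjusted genes were higher and 2 lower by the authors' deposited table, and 1 was higher and 5 lower on the FPKM scale, beside 16.5% and 14.1% of all adjusted genes, and 10.8% and 25.2% on the FPKM scale. Myd88 was 1.47-fold higher in ProNa than in LPS by the authors' deposited table (adjusted p = 1.8e-12), at 61.2 FPKM. Ticam1 and Ticam2, the adaptor pair of the TRIF branch, were lower (adjusted p = 3.2e-12 and 9.2e-09 in the authors' deposited table).

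Chaperones, trafficking factors and proteases that bring receptors to endosomes and process them also went both ways. Of 17 genes 8 were higher and 6 lower in LPS than in CON by the authors' deposited table, where 28.1% and 27.2% of all adjusted genes were. Hsp90b1, the chaperone gp96 that folds most receptors, had 291, 1039 and 642 FPKM in CON, LPS and ProNa (adjusted p = 2.0e-292 for LPS against CON and 6.0e-22 for the fall in ProNa against LPS, both in the authors' deposited table). Lgmn, a protease of endosomes, fell from 775 to 121 FPKM, and Slc15a3, a lysosomal peptide transporter, rose from 11.9 to 646 FPKM, each with an adjusted p listed as 0 in the authors' deposited table. In ProNa 7 were higher and 2 lower than in LPS by the authors' deposited table, and 7 were higher and 5 lower on the FPKM scale. Of all adjusted genes 16.5% were higher and 14.1% lower, and 10.8% and 25.2% on the FPKM scale. Ctsl and Ctsk, cathepsins that can cleave endosomal receptors, were 1.71-fold and 3.23-fold higher in the authors' deposited table (adjusted p = 3.3e-34 and 1.2e-31). Unc93b1, the escort of the nucleic acid receptors, was chosen after its values were seen. It had 396, 161 and 196 FPKM, lower in LPS than in CON and higher in ProNa than in LPS by the authors' deposited table (adjusted p = 4.5e-49 and 7.8e-11).

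Negative regulators were higher in 6 and lower in 5 of 14 cases in LPS against CON by the authors' deposited table, and on the FPKM scale 6 were higher and 7 lower. The shares over all adjusted genes were 28.1% and 27.2% and, on the FPKM scale, 22.1% and 34.6%. Atf3, Tnfaip3 and Zc3h12a, which restrain the transcription, ubiquitin and mRNA steps of the response, were 13.7-fold, 9.66-fold and 8.26-fold higher in the authors' deposited table. There the adjusted p was listed as 0 for Atf3 and Tnfaip3 and was 5.7e-217 for Zc3h12a. Between ProNa and LPS 3 of 13 adjusted genes were higher and 2 lower by the authors' deposited table, against 2 and 3 on the FPKM scale. Over all adjusted genes these shares were 16.5% and 14.1%, and 10.8% and 25.2% on the FPKM scale. Dok2, a docking protein, and Il1rl1, the receptor of interleukin 33, were 2.24-fold and 3.48-fold higher in the authors' deposited table (adjusted p = 1.8e-51 and 3.0e-41). Tnfaip3 was lower, at 31.8 FPKM in ProNa against 58.6 FPKM in LPS (adjusted p = 1.5e-19 in the authors' deposited table).

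Genes with a like pattern were sought among 11805 genes with a mean of at least 1 FPKM, by the distance between centred log2(FPKM + 0.5) values over the 3 group means. The nearest to Tlr2 were Alyref2, Incenp and Gm36738. The nearest to Tlr1 were Mamdc4, Hmgxb3 and 1700028J19Rik. For Tlr7 they were Paqr4, Gm43738 and Clec7a, at distances of 0.02, 0.07 and 0.09. Within a distance of 0.25 lay 405 genes for Tlr2, 759 for Tlr1 and 34 for Tlr7, so with only 3 points the patterns of Tlr2 and Tlr1 are common ones.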

How the data were processed

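The FPKM are the authors' group means per transcript, in columns named CON, LPS and ProNa per the file headers. They were summed here by gene. A further 9 columns of single libraries have names that no label gives and were not used, so no SD could be computed and depth is unknown. The log2 fold changes, folds (ratio) and p-values per gene are those of the authors' deposited table. HISAT2, StringTie and DESeq2 with build GRCm39 are named in the submitters' processing notes, without versions. How reads in common to several genes were counted was not stated.

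Adjusted p-values listed at exactly 1 lie outside the authors' adjustment and were treated as missing. Over the other 17795, 12732 and 18540 genes a Benjamini-Hochberg adjustment of the deposited p-values gave the authors' values. Adjusted p-values of 0 are printed as listed. For the FPKM scale the standard error was derived from the deposited fold change and p (two-sided normal). This step was run on simulated normal data with the shift given to it, so the estimate of the shift itself was not tested. The limma fit and replicates left out, which would need single libraries, were not run. Where a symbol had more than 1 identifier, the one with the highest mean FPKM was used.

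The receptors and the 4 lists around them were chosen with earlier results of these data known. The text names all receptors, the 3 genes of each list with the smallest adjusted p in LPS against CON and in ProNa against LPS, and the 3 genes nearest in pattern to the receptor with the highest mean and to those with the smallest adjusted p in either direction. Python 3.11.15 with pandas 2.3.3, numpy 2.4.6, scipy 1.17.1 and matplotlib 3.10.9 was used. Protein identity between receptors was not analysed here.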

Additional observations from a re-analysis of the deposited data

How the results depend on the processing

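Of 27 combinations of receptor and comparison with an adjusted p, 23 were called. No call changed direction with FPKM ratios at pseudocounts of 0.1, 0.5 or 1, or with reference transcripts only. These settings kept the deposited adjusted p, so only the direction could change and no call could be lost. Adjusted over genes of at least 1 FPKM, none of the 24 combinations that remained, uncalled ones included, crossed the threshold; Tlr8 lies below that mean, so its calls have no value there. Uncalled values of ProNa against LPS turned negative: Tlr2 was -0.061, -0.060 and -0.059 at pseudocounts of 0.1, 0.5 and 1, -0.065 on the FPKM scale with or without a new test, -0.13 with reference transcripts and -0.060 with TIR-domain transcripts. Tlr4 was -0.042, -0.041 and -0.039, then -0.11, -0.039 and -0.12. With TIR-domain transcripts Tlr1 in ProNa against CON was -0.020 in place of 0.37. The scale change ended the call of Tlr1 and made one for Tlr13 in ProNa against CON, as given above. At 2-fold or more, 0 receptors were higher and 3 lower in LPS against CON, and 2 higher and 0 lower in ProNa against LPS. In ProNa against CON 1 was higher and 4 were lower. The summed level of the receptors was 251, 114 and 132 FPKM in CON, LPS and ProNa with reference transcripts only, and 273, 123 and 143 FPKM with TIR-domain transcripts. With an adjusted p under 0.01, 5 receptors were lower in LPS against CON, without Tlr9. The limma fit and the runs without each replicate were not run. The retest on the FPKM scale and the choice of TIR-domain transcripts were added after seeing the data. No paired analysis was possible because no column of a single library could be assigned to a sample. Without counts, precision at low levels such as Tlr8 and Tlr5 is unknown.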
